A study of Homo sapiens with 6 samples.

Results

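The G1 cyclins, cyclin-dependent kinases (CDKs) and CDK inhibitors examined here are 10 genes: the D-type cyclins CCND1, CCND2 and CCND3, the E-type cyclins CCNE1 and CCNE2, the kinases CDK4, CDK6 and CDK2, and the inhibitors CDKN1A (p21) and CDKN1B (p27). They were taken by gene symbol, and all 10 were among the 19202 genes of the count table. RNA sequencing compared sorafenib-resistant MHCC97H cells (3 libraries) with sorafenib-sensitive MHCC97H control cells (3 libraries). MHCC97H is a highly metastatic line derived from human hepatocellular carcinoma. Sorafenib, an oral drug for advanced liver cancer, inhibits several kinases. Both groups come from this 1 cell line. The labels give neither the dose and length of sorafenib exposure, nor whether the drug was present at harvest, nor whether replicates came from separate cultures, so the p-values cover only how far these libraries vary, in part perhaps for technical reasons.

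G1 cyclins carry growth signals into the cell cycle. D-type cyclins bind CDK4 and CDK6, and cyclin E binds CDK2. These kinases phosphorylate the retinoblastoma protein, which releases E2F transcription factors and lets cells enter S phase. The inhibitors p21 and p27 block CDK2 complexes, and they also help to assemble cyclin D with CDK4. Cyclin D1 lies downstream of the RAS, RAF and ERK cascade, whose RAF kinases sorafenib inhibits, and p21 is induced by many stress signals.

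Resistant libraries held 3745068, 4280175 and 4961907 counts in replicates 1, 2 and 3, and control libraries held 1913469, 5345272 and 3401241. Levels are given in CPM, counts divided by the TMM-scaled library total, and the log2 fold change (log2FC) is of resistant over control cells. In bulk RNA, fewer cells of a type and less RNA per cell cannot be told apart. The keratin KRT8, an epithelial marker, had 1010 to 1209 CPM in resistant and 1105 to 1401 CPM in control libraries. Of the 6 tested liver cancer and epithelial markers, 3 were called lower and 0 higher by edgeR, with a median log2FC of -0.67. Of all tested genes 24.1% were called, 12.3% of them all being called lower. The uncalled markers were KRT8 (log2FC -0.21), KRT18 (-0.09) and AFP (0.24). Albumin, ALB, a hepatocyte gene, was low at 1.62 to 8.39 CPM in resistant and 13.4 to 20.8 CPM in control libraries. Its log2FC was -1.62 (adjusted p = 0.00113 in edgeR), and that of APOB, also a hepatocyte gene, was -1.47 (0.00108). The epithelial gene CDH1 had a log2FC of -1.13 (0.0219), with 41.1, 10.5 and 11.1 CPM in control replicates 1, 2 and 3. CDH1 kept its call in 11 of the 14 alternative fits, where its log2FC ranged from -1.50 to -0.28. The hepatocyte gene APOA1 was at 0 in 4 of the 6 libraries, and the epithelial gene EPCAM was at 0 in resistant replicate 2. The 5 endothelial markers summed to 133 CPM in resistant replicate 3, whereas resistant replicates 1 and 2 had 40.6 and 50.5 CPM and the control libraries 50.2 to 68.2 CPM. Of these, KDR had the highest mean CPM over the 6 libraries, unadjusted for length. The defining endothelial genes VWF and CDH5 had 26.2 and 19.2 CPM in resistant replicate 3, at most 1.41 and 0.00 CPM in the other resistant libraries, and at most 1.76 and 3.09 CPM in control libraries. PECAM1, also endothelial, had 6.50, 12.9 and 41.7 CPM in resistant replicates 1, 2 and 3, against 43.2, 30.9 and 24.9 CPM in control replicates 1, 2 and 3. Its log2FC was -0.63 (adjusted p = 0.156 in edgeR), and -1.71 without resistant replicate 3, where it was called lower (adjusted p = 1.3e-05). KRT18, AFP, APOB, CDH1, VWF, CDH5 and PECAM1 were named after their values were seen. The fibroblast markers summed to 17.3, 11.8 and 41.1 CPM in resistant replicates 1, 2 and 3. In control replicates 1, 2 and 3 the fibroblast sums were 14.9, 24.7 and 36.7 CPM. Of the fibroblast markers, LUM had the highest mean CPM over the 6 libraries. The leukocyte markers, of which PTPRC had the highest mean, summed to 6.23 to 9.17 CPM in resistant and 6.21 to 10.3 CPM in control libraries. No gene of these 3 lists was at 0 in all libraries, while 3 fibroblast, 3 endothelial and 5 leukocyte markers were at 0 in at least 1 library. The part of these cells in the results was not tested. Fits without resistant replicate 3 are given below for all tested G1 genes.

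Of the 10 genes, 9 had enough counts to be tested, CCND2 being the exception. CCND1, CDK4 and CDKN1A rose in resistant cells, and none of the other 6 tested genes passed the test in either direction. The 3 of 9 called higher stand beside 11.7% of all 10804 tested genes called higher, and 24.1% called in either direction, by the quasi-likelihood test of edgeR with Benjamini-Hochberg adjustment (threshold 0.05). At an unadjusted p under 0.05, reached by 3792 of the 10804 tested genes in edgeR, CCND3 would join them as a 4th, lower gene. DESeq2 and limma-voom called the same 3 genes. For these 3 genes the lowest resistant library was above the highest control library, as for 19.2% of all tested genes, and for CCND3 the highest resistant library was below the lowest control library, as for 18.9%. The same 3 genes were called without resistant replicate 3, with log2FC of 0.92 for CCND1, 0.62 for CDK4 and 0.62 for CDKN1A. The other 6 tested genes were uncalled there too, with log2FC of -0.23 for CCND3, 0.24 for CCNE1, 0.81 for CCNE2, -0.17 for CDK6, -0.04 for CDK2 and 0.19 for CDKN1B. The CCND1/CCND3 and CDK6/CDK4 differences described below were 1.19 and -0.80 on the log2 scale without that library. The median log2FC of the 9 genes was 0.26, against -0.01 over all tested genes.

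The window around the transcription start is shown for CDK4 and CDKN1A, the rising genes with an entry in the RefSeq promoter table (GRCh38.p14). CCND1, the other rising gene, had no entry. Each window runs from 250 bases before the start to 50 after it, 5′ to 3′ on the gene's own strand. Capitals mark the E-box CACGTG, a site bound by MYC-family factors, and the GC box GGGCGG, a site bound by SP1-family factors, on either strand. The CDK4 window is chr12:57752261-57752560 on the minus strand, and the CDKN1A window is chr6:36678464-36678763 on the plus strand.
CDK4: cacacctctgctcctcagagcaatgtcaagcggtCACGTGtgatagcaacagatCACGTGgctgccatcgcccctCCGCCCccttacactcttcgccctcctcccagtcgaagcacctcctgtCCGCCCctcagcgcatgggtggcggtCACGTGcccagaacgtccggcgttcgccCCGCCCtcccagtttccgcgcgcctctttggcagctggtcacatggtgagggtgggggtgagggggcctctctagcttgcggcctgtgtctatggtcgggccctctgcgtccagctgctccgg
CDKN1A: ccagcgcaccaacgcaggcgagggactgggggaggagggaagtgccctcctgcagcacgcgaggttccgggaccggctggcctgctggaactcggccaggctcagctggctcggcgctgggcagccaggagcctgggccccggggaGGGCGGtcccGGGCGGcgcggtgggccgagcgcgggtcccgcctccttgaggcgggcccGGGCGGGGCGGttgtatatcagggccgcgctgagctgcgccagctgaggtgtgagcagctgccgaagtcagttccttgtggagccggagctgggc
The CDK4 window held 3 E-boxes, which began 216, 196 and 101 bases before the start, and 3 GC boxes. Of all 35116 windows of this length in the table, 7.26% held at least 1 E-box and 0.094% at least 3. The CDKN1A window held no E-box and 4 GC boxes, and at least 3 GC boxes were found in 15.8% of all windows. Among the 6 members with an entry, which have 9 windows between them, the other E-box was a single one in a CDK6 window. The CCNE1 window held 7 GC boxes, and the CCND3 windows 5, 4 and 0. The CDK6 windows held 3 and 0, and the CDKN1B window 1. None of CCNE1, CCND3, CDK6 and CDKN1B was called. No window of these 6 members held the E2F letters TTTCGCGC, TTTGGCGC, TTTCCCGC or TTTGCCGC, the cyclic AMP element TGACGTCA, the AP-1 letters TGANTCA or the TATA letters TATAAA. In all windows, 3.32% held 1 of the E2F letters, 1.85% the cyclic AMP element, 7.71% the AP-1 letters and 11.5% the TATA letters. The search covered both strands, and matches of different motifs did not overlap in the printed windows.

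CCND1 encodes cyclin D1, the D-type cyclin that growth factor signalling induces. It had 366.5, 384 and 356 CPM in resistant replicates 1, 2 and 3, against 148, 228 and 218 CPM in control replicates 1, 2 and 3. The resistant libraries lay close together, and control replicate 1, the library with the fewest counts, was the lowest of all. CCND1 averaged 369 ± 14.1 CPM in resistant and 198 ± 43.5 CPM in control cells (SD, n = 3 each), a ratio of 1.86. The fitted log2FC of 0.88 (SE 0.11) reached an adjusted p of 8.0e-08 in edgeR, with the 124th smallest p among the 10804 tested genes. Without control replicate 1 the log2FC was 0.73 and the call remained. The gene (Entrez 595) spans 69641087 to 69654474 of chromosome 11, plus strand, in GENCODE 29 on GRCh38. The other spans are of that annotation too, while the build used for counting is not stated. CCND1 exons share 497 bases with LTO1 on the opposite strand, a gene not analysed here, and use of strand in the counting is not stated.

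CCND3, cyclin D3, did not pass the test but had the opposite sign. It had 92.6, 94.3 and 80.2 CPM in resistant replicates 1, 2 and 3, against 133, 102 and 100.3 CPM in control replicates 1, 2 and 3. The groups did not overlap, and control replicate 1 was the highest library. The log2FC was -0.31 (SE 0.13, 95% interval -0.57 to -0.05), and the adjusted p in edgeR was 0.0724. Over the alternatives its adjusted p ranged from 0.0536 to 0.395, and the log2FC was -0.18 without control replicate 1 and -0.23 without resistant replicate 3.

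CCND2, cyclin D2, was close to undetected. Its counts were 0, 2 and 4 in resistant replicates 1, 2 and 3 and 0, 4 and 4 in control replicates 1, 2 and 3, or 6 and 8 counts per group. A count of 0 allows up to 0.812 CPM in resistant replicate 1 and 1.54 CPM in control replicate 1, counting error only. These limits take each count as independent. Among counts of 1 to 20, 81.8 to 88.5% were even over the libraries, so the limits may be too low. No difference was detectable at this depth, and the gene was not tested.

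**Figure D1:**
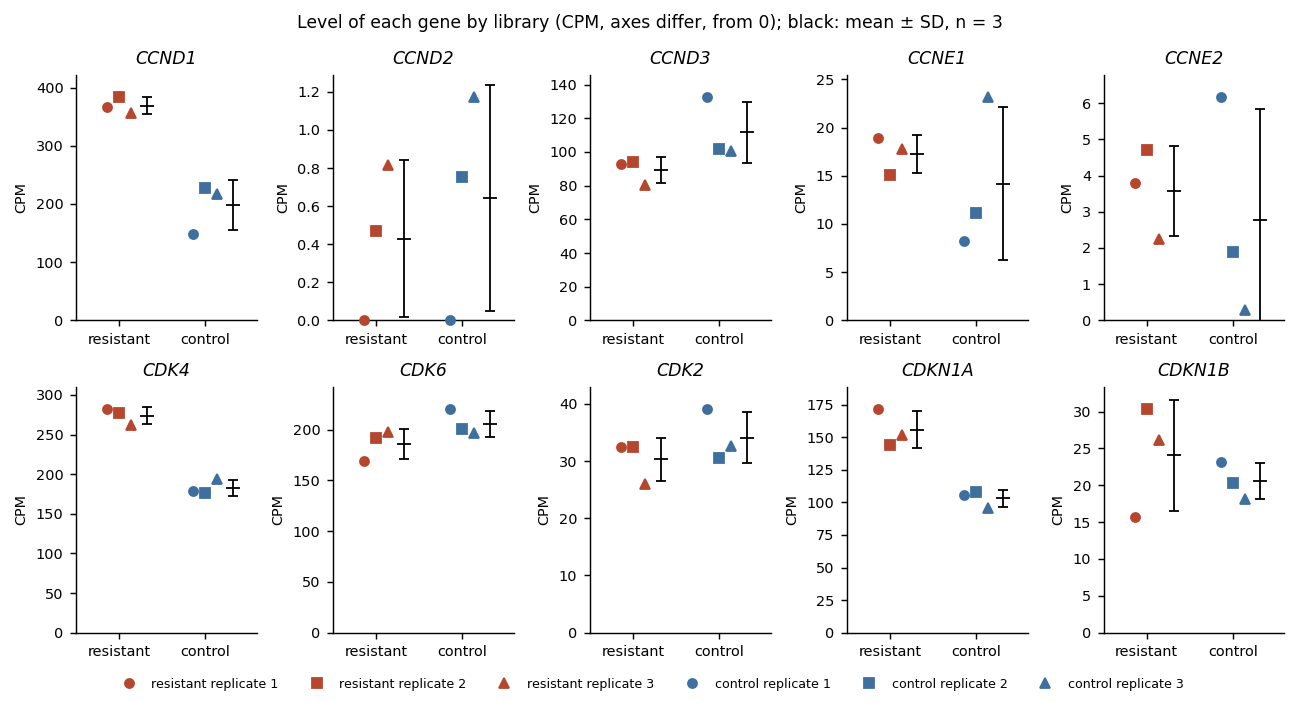
Level of each of the 10 genes in CPM (vertical axes from 0, with a scale of their own for each gene) in the 3 resistant (left, red) and 3 control (right, blue) libraries, with the replicate shown by the symbol and the mean ± SD in black (cut at 0). CCND1, CDK4 and CDKN1A have every resistant library above every control library, and CCND2 stays below 1.2 CPM throughout.

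Within a library, the ratio of one gene's count to another's does not depend on how libraries are scaled. The log2 ratio of CCND1 to CCND3 counts was 1.98, 2.02 and 2.15 in resistant replicates 1, 2 and 3, against 0.16, 1.16 and 1.12 in control replicates 1, 2 and 3. Every resistant library had more CCND1 relative to CCND3 than every control library, by 1.24 on the log2 scale between group means (2.36-fold). The exact two-sided permutation p was 0.1, the smallest that 3 against 3 libraries allow, and 0.25 after adjustment over the 5 ratios computed. Per kilobase of the longest annotated transcript, CCND1 made up 69.7 ± 1.21% of the D-type cyclin level in resistant and 49.4 ± 9.65% in control cells (SD, n = 3 each).

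CCNE1, cyclin E1, the partner of CDK2 at the G1/S transition, was low and varied among control libraries. It had 18.9, 15.0 and 17.8 CPM in resistant replicates 1, 2 and 3, against 8.23, 11.1 and 23.2 CPM in control replicates 1, 2 and 3. Control replicate 3 was above every resistant library and the other control libraries were below them all. The log2FC was 0.26 (SE 0.30, 95% interval -0.34 to 0.86; adjusted p = 0.587 in edgeR). Without control replicate 3 it was 0.80, with an adjusted p of 0.0868 in edgeR, and without control replicate 1 it was 0.05.

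CCNE2, cyclin E2, rested on 14, 20 and 11 counts in resistant replicates 1, 2 and 3 and on 12, 10 and 1 counts in control replicates 1, 2 and 3. The control libraries spanned 0.293 to 6.17 CPM and held the whole range of the resistant libraries, 2.25 to 4.70 CPM. The log2FC of 0.56 had a 95% interval of -0.84 to 1.96 (adjusted p = 0.615 in edgeR). It was 1.57 without control replicate 1 and -0.017 without control replicate 3. CCNE2 exons share 1629 bases with INTS8 on the other strand, a subunit gene of the Integrator complex. INTS8 was itself lower, at 47.3 ± 1.66 CPM in resistant and 67.0 ± 5.08 CPM in control cells (SD, n = 3 each; log2FC -0.51, adjusted p = 0.00875 in edgeR). The part of these shared exons in the CCNE2 counts was not tested. The log2 ratio of CCNE1 to CCNE2 spanned 1.65 to 2.93 in resistant and 0.40 to 5.73 in control libraries, and the groups overlapped.

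CDK4 encodes a kinase that D-type cyclins activate. It had 282, 277 and 262 CPM in resistant replicates 1, 2 and 3, against 178, 176 and 194 CPM in control replicates 1, 2 and 3. The lowest resistant library had 1.35 times the level of the highest control library. The averages were 274 ± 10.3 CPM in resistant and 183 ± 9.82 CPM in control cells (SD, n = 3 each), a ratio of 1.50. Its log2FC of 0.58 (SE 0.10) had an edgeR adjusted p of 1.7e-05. CDK4 (Entrez 1019) spans 57747727 to 57756013 of chromosome 12, minus strand.

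The tetraspanin gene TSPAN31, on the other strand, shares 1369 exon bases with CDK4. TSPAN31 had 14.9, 18.1 and 19.6 CPM in resistant replicates 1, 2 and 3, against 14.4, 14.9 and 12.0 CPM in control replicates 1, 2 and 3. Its log2FC of 0.35 did not pass edgeR's test (adjusted p = 0.374). Reads of the shared exons cannot be assigned with certainty, since use of strand is not stated.

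CDK6, the other cyclin D kinase, did not pass the test. It had 169, 192 and 197 CPM in resistant replicates 1, 2 and 3, against 220, 201 and 196 CPM in control replicates 1, 2 and 3. The groups overlapped through control replicate 3. The log2FC was -0.14 (SE 0.10, 95% interval -0.34 to 0.07; adjusted p = 0.357 in edgeR). The log2 ratio of CDK6 to CDK4 counts was -0.74, -0.53 and -0.41 in resistant replicates 1, 2 and 3, against 0.30, 0.19 and 0.02 in control replicates 1, 2 and 3. All 3 resistant libraries therefore held fewer CDK6 than CDK4 counts, and all 3 control libraries more. The difference between group means was -0.73 on the log2 scale, with an exact two-sided permutation p of 0.1 (0.25 adjusted over the 5 ratios). These ratios are of counts and not of transcript numbers, because the longest CDK6 transcript measures 11.6 kilobases and that of CDK4 2.08 kilobases.

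CDK2, the kinase of cyclin E, had 32.5, 32.4 and 26.0 CPM in resistant replicates 1, 2 and 3, against 39.1, 30.5 and 32.6 CPM in control replicates 1, 2 and 3. The groups overlapped, with resistant replicate 3 the lowest and control replicate 1 the highest. The log2FC was -0.15 (SE 0.19, 95% interval -0.54 to 0.24; adjusted p = 0.623 in edgeR), and -0.04 without resistant replicate 3.

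**Figure D2:**
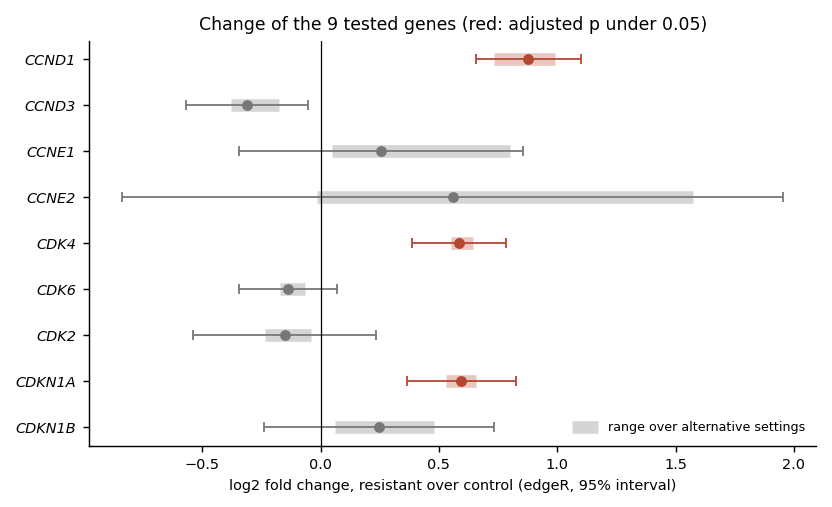
log2FC (resistant over control, horizontal axis) of the 9 tested genes with 95% intervals from edgeR's quasi-likelihood fit, in red where the adjusted p is under 0.05, and with a shaded bar for the range over the alternative settings. CCND1 (0.88), CDKN1A (0.59) and CDK4 (0.58) are the genes in red, and the range of CCNE2 reaches just below 0.

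CDKN1A encodes p21, an inhibitor induced after DNA damage. It had 172, 144 and 152 CPM in resistant replicates 1, 2 and 3, against 105, 108 and 95.6 CPM in control replicates 1, 2 and 3. The control libraries were close to one another, and each resistant library exceeded them all. Mean levels were 156 ± 14.3 CPM in resistant and 103 ± 6.56 CPM in control cells (SD, n = 3 each), a ratio of 1.51. The log2FC was 0.59 (SE 0.11) at an edgeR adjusted p of 0.00012. CDKN1A (Entrez 1026) spans 36676460 to 36687339 of chromosome 6, plus strand, and its exons share 146 bases with the noncoding gene DINOL on the other strand, which was not analysed here.

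CDKN1B encodes p27, the inhibitor that accumulates in quiescent cells. It had 15.7, 30.3 and 26.2 CPM in resistant replicates 1, 2 and 3, against 23.1, 20.3 and 18.2 CPM in control replicates 1, 2 and 3. Resistant replicate 1 lay below all control libraries and the other resistant libraries above them. The log2FC was 0.25 (SE 0.24, 95% interval -0.24 to 0.73; adjusted p = 0.499 in edgeR). It was 0.48 without resistant replicate 1 and 0.06 without resistant replicate 2. Resistant replicate 1 also had the highest CDKN1A level, and its log2 ratio of CDKN1A to CDKN1B was 3.44, against 2.24 and 2.53 in resistant replicates 2 and 3 and 2.18 to 2.40 in control libraries. The groups overlapped in this ratio (exact two-sided permutation p = 0.4, 0.5 adjusted over the 5 ratios).

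The cyclin and the inhibitor that rose can be set against each other in each library. The log2 ratio of CCND1 to CDKN1A was 1.09, 1.42 and 1.23 in resistant replicates 1, 2 and 3, against 0.49, 1.08 and 1.19 in control replicates 1, 2 and 3. Control replicate 1 stood below the rest, and control replicate 3 lay within the resistant range. The difference of 0.33 between group means had an exact two-sided permutation p of 0.2 (0.333 adjusted over the 5 ratios), and it was 0.11 without control replicate 1.

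**Figure D3:**
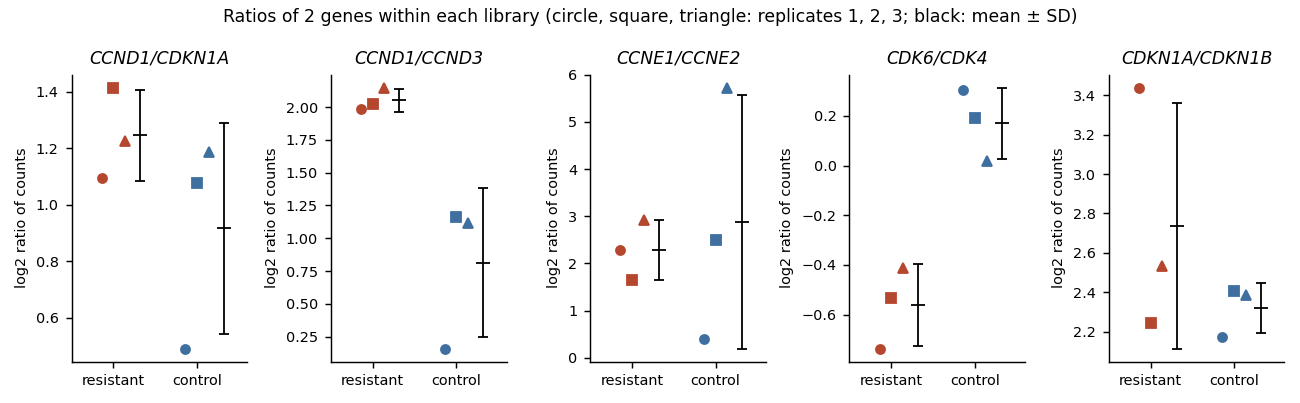
log2 ratios of the deposited counts of 2 genes within each library (vertical axes, not starting at 0), with resistant libraries at the left in red, control libraries at the right in blue and mean ± SD in black. The groups are apart for CCND1/CCND3 (higher in resistant) and CDK6/CDK4 (lower in resistant), and overlap for the other 3 ratios.

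Levels of the members were compared with one another per kilobase of transcript, first with the longest transcript of each gene. In resistant cells CDK4 was the highest at 132 ± 4.98 CPM per kilobase, followed by CCND1 at 85.6 ± 3.28, CDKN1A at 68.7 ± 6.29, CCND3 at 37.2 ± 3.21 and CDK6 at 16.0 ± 1.28 (SD, n = 3). These 5 did not overlap from one to the next across resistant libraries. In control cells CDK4 was again first at 88.0 ± 4.73 CPM per kilobase. It was followed by CCND3, CCND1 and CDKN1A at 46.6 ± 7.64, 46.0 ± 10.1 and 45.5 ± 2.89 (SD, n = 3), which did not differ beyond their spread. CDK2, CDKN1B and CCNE1 had 8.45 to 11.7 CPM per kilobase in resistant and 6.94 to 13.1 in control cells, where neighbours overlapped except CDK2 and CDKN1B in control. CCNE2 and CCND2 were last in both groups at 1.08 and 0.0663 in resistant and 0.836 and 0.0991 in control cells. The order depends on the length used. With the median transcript length CCND1 came first in both groups and CDK6 was 3rd in resistant and 2nd in control cells.

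The tested genes whose pattern over the 6 libraries was most like a rising member's were found by the root mean square difference of centred log2 CPM. For CCND1 they were UFM1, the ubiquitin-like modifier (0.058; log2FC 0.85), and LMCD1, a LIM and cysteine-rich domain protein (0.072; log2FC 0.92). For CDK4 they were RACK1, a ribosome-bound scaffold protein (0.025; log2FC 0.58), and TIMM17A, a subunit of the mitochondrial inner membrane translocase (0.025; log2FC 0.59). For CDKN1A they were the lipid droplet protein PLIN2 (0.037; log2FC 0.63) and the co-chaperone DNAJA2 (0.045; log2FC 0.62). Between members, CDK4 and CDKN1A differed by 0.119, CDK4 and CCND1 by 0.255 and CDKN1A and CCND1 by 0.286. Many other tested genes were more alike. In likeness to CDK4, CDKN1A ranked 237 and CCND1 2362. In likeness to CDKN1A, CDK4 ranked 176 and CCND1 2811. In likeness to CCND1, CDK4 ranked 471 and CDKN1A 702. These differences and ranks over 6 libraries are descriptions.

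Other genes of the pathway were taken as 8 lists of 106 genes. In edgeR's test 30 of the 102 tested genes were called (29.4%, against 24.1% of all tested genes). Without control replicate 1, 19 list genes were called, beside 2126 of all 11198 genes tested in that fit. The share called of each list below stands beside the same 24.1%. Of the other CDK inhibitors 0 of 4 tested genes were called in either direction by edgeR. At an unadjusted p under 0.05 there were 0 too, against 3792 of all 10804 tested genes. The INK4 genes CDKN2A (p16) and CDKN2B (p15), inhibitors of CDK4 and CDK6, had log2FC of 0.05 and -0.07. CDKN2C had -1.46 (adjusted p = 0.191) at 0.00 to 2.82 CPM in resistant and 2.64 to 3.52 CPM in control libraries, and was called lower by limma-voom and without resistant replicate 2.

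Among the pocket proteins, E2F and DP factors, 2 of 13 were higher and 3 lower (38.5% called), with a median log2FC of -0.26. E2F1, an activator of S-phase genes, fell to 17.3 ± 2.83 CPM in resistant, against 36.0 ± 8.20 CPM in control cells (SD, n = 3 each; log2FC -1.03, SE 0.22, adjusted p = 0.000523 in edgeR). E2F7, a repressor of E2F targets, fell to 88.9 ± 20.7 CPM in resistant, against 151 ± 3.48 CPM in control cells (log2FC -0.76, SE 0.13, adjusted p = 1.67e-05 in edgeR). Named after their values were seen, the pocket protein gene RBL2 was also lower (-0.70), while E2F5 (1.07) and E2F4 (0.37), which act with pocket proteins, were higher. The E2F4 call was lost without control replicates 1 or 2 or resistant replicates 2 or 3, in DESeq2 and with library-total scaling (adjusted p 0.0529 to 0.148). RB1 had a log2FC of -0.27 at 5.41 to 9.41 CPM in resistant and 4.90 to 11.4 CPM in control libraries and did not pass the test (adjusted p = 0.70 in edgeR).

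Of the genes that activate CDKs or set their inhibitory phosphorylation, 3 of 8 were higher and 0 lower (37.5% called), with a median log2FC of 0.11. CDK7, CCNH and MNAT1 form the CDK-activating kinase. MNAT1, named after its values were seen, was not called (log2FC 0.27, adjusted p = 0.541 in edgeR). CDK7 rose to 56.9 ± 6.69 CPM in resistant, against 34.9 ± 5.42 CPM in control cells (SD, n = 3 each; log2FC 0.68, SE 0.17, adjusted p = 0.00222 in edgeR). CCNH had a log2FC of 0.55 (SE 0.18, adjusted p = 0.0227), and lost the call without control replicate 2 (0.0788) or resistant replicate 1 (0.133). The other higher gene was the phosphatase gene CDC25A (0.88), whose call was lost without control replicates 1 or 2 or resistant replicate 2 (0.111 to 0.114).

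Ubiquitin ligases and other turnover genes were 2 higher and 2 lower of 16 (25.0% called). GSK3B, a kinase that marks cyclin D1 for export and degradation, had a log2FC of -0.41 (adjusted p = 0.0312 in edgeR). DTL, which directs p21 to a CUL4 ligase in S phase, had -0.53 (0.0317). The GSK3B call was lost without any 1 of control replicates 1, 2 and 3 or resistant replicates 1 and 3, with adjusted p from 0.0549 to 0.206. That of DTL was lost without control replicates 1 or 3 or resistant replicates 1 or 3 (0.0569 to 0.271), in DESeq2 (0.0565) and in limma-voom (0.0745). SKP2, which targets p27, had a log2FC of -1.15 that did not pass (adjusted p = 0.0844). The higher genes of this list, the ligase subunits RBX1 (0.61) and CUL4A (0.36), named after their values were seen, were both uncalled in DESeq2 and without control replicates 1 or 3 or resistant replicate 1. RBX1 was also uncalled without resistant replicate 2, and CUL4A, without control replicate 2 or resistant replicate 3 among others, kept its call in 4 of the 14 alternatives.

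Transcription factors known to act on the members were 3 higher and 3 lower of 20 (30.0% called). KLF6, known as an inducer of p21, rose to 765 ± 46.7 CPM in resistant, against 554 ± 74.2 CPM in control cells (SD, n = 3 each; log2FC 0.46, adjusted p = 0.000236 in edgeR). EGR1, an immediate-early factor, fell to 279.7 ± 8.66 CPM in resistant, against 387 ± 47.4 CPM in control cells (log2FC -0.47, adjusted p = 0.000332 in edgeR). MYC, a driver of growth and of the G1/S transition, had a log2FC of 0.21 and did not pass the test (adjusted p = 0.0804 in edgeR). Of the other higher factors, MAX (0.48) and FOXO3 (0.34), named after their values were seen, both lost the call without control replicate 1 or resistant replicate 2. MAX also lost it without resistant replicate 1, and FOXO3 without control replicate 3 or resistant replicate 3 (0.0620 to 0.139 over both genes). The other lower factors, JUND (-0.51, adjusted p = 0.000685 in edgeR) and STAT3 (-0.47, 0.00212), also named after their values were seen, were called in all 14 alternatives.

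The E2F-responsive replication genes were 1 higher and 1 lower of 15, with 13.3% called and a median log2FC of -0.04. MCM5 and MCM2, subunits of the same replicative helicase, had log2FC of -0.63 (adjusted p = 0.00447 in edgeR) and 0.38 (0.0299). The MCM5 call was lost without control replicate 3 (0.0635) or resistant replicate 2 (0.0520), and the MCM2 call without control replicates 1 or 3 or any resistant replicate (0.0552 to 0.0846). Of the S and G2/M cyclins with CDK1, 0 of 5 were higher and 2 lower (40.0% called). CCNB1, cyclin B1, fell to 56.1 ± 10.2 CPM in resistant, against 104 ± 20.7 CPM in control cells (SD, n = 3 each; log2FC -0.86, adjusted p = 2.63e-05 in edgeR). CCNF, cyclin F, had a log2FC of -0.82 (0.00555). CCNA2 (-0.23, adjusted p = 0.390) and CDK1 (0.28, 0.0940) did not pass. CDK1 was the 1 gene of this list higher at an unadjusted p under 0.05. Over all 10804 tested genes, 3792 had such a p in either direction.

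**Figure D4:**
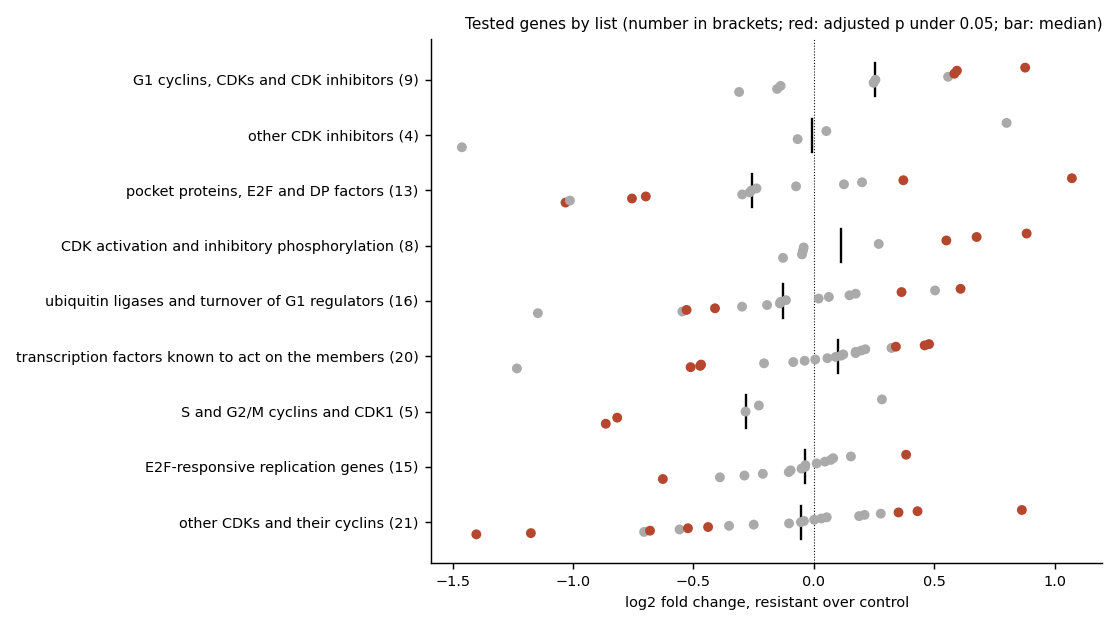
log2FC (resistant over control, horizontal axis) of the tested genes of each list, with the number tested in brackets, genes at an adjusted p under 0.05 in red and the list's median as a bar. The G1 genes have 3 red points, all above 0, and the E2F list holds red points on both sides.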

How the data were processed

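RNA from 3 resistant and 3 control libraries of MHCC97H cells was measured by RNA sequencing, with Trizol extraction and a Direct-zol kit per the labels' protocols. The authors deposited raw whole-number counts per gene symbol. Trimmomatic, HISAT2 and Bowtie2 are named, with no role, in the submitters' processing notes. How genes were counted, on which build and annotation, and whether strand was used was not given in the sources used here. The 6 columns of the series table equalled the single-library files. Among non-zero counts 63.6 to 69.1% were even; the reason was not tested, and halved counts are among the alternatives. On halved counts, squared differences between replicate pairs were 1.77 to 2.85 times those that sampling of independent counts would give (chi-square per degree of freedom). Each library was kept as its own replicate.

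Groups and replicate numbers are from the sample titles. Genes passing filterByExpr (10804) were scaled by TMM and tested with edgeR 4.0.16 in R 4.3.3 (quasi-likelihood F test, group only, Benjamini-Hochberg over all tested genes, calls at 0.05); the SE is the log2FC over the square root of F. The test was tried on counts simulated at a common dispersion. It recovered 27.7% of 65 genes changed 1.5-fold, 92.3% of 65 changed 2.0-fold and 100% of 65 changed 4.0-fold. Of 150 calls there, 7 were false. Many more genes were called in the real data, so these shares may not carry over. Ratios used a prior count of 0.5. The log2 CPM behind pattern likeness used a prior count of 2. Lengths and spans are from GENCODE 29. Alternatives were DESeq2 1.42.0, limma-voom (limma 3.58.1), scaling by RLE or by library totals, 2 other filters, a replicate block, halved counts and leaving out each library. Named genes are all members, the 2 called genes of smallest p in each list, the 2 genes most like each called member, and the marker of highest mean CPM in each cell type list; others were named after their values were seen, and 1 list gene is not reported here. The members and lists were chosen with earlier results of these data known. Figures were drawn with matplotlib 3.10.9.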

Additional observations from a re-analysis of the deposited data

How the results depend on the processing

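CCND1, CDK4 and CDKN1A, and no other G1 gene, were called under all 14 alternative fits; their log2FC ranged from 0.73 to 0.99, 0.55 to 0.64 and 0.53 to 0.66. The count over all genes was 2001 to 2261 with 1 library left out and 2394 to 2690 otherwise, and the count over the 8 pathway lists was 19 (without control replicate 1) to 25 with 1 library left out and 26 to 32 otherwise. CCNE2 had a log2FC of 1.57 without control replicate 1 and -0.017 without control replicate 3, and could not be fitted with halved counts, where it fell under the filter. The CCNE1/CCNE2 difference (-0.59) ranged from -1.83 to 0.84 with 1 library left out, the positive value being without control replicate 3, where CCNE2 has 1 count. With the median transcript length, CCND1 was 81.3% of the D-type sum in resistant and 64.5% in control cells, CDK4 was 59.8% and 47.2% of CDK4 plus CDK6 (89.2% and 83.2% with the longest), and CDKN1A was 76.7% and 71.9% of CDKN1A plus CDKN1B (88.2% and 85.5%). Same-numbered libraries did not deviate together (correlations of deviations -0.02, 0.03 and -0.01 for numbers 1, 2 and 3), so the numbers were not taken as pairs; with the replicate block 2518 genes, 3 members and 29 list genes were called. Depth limits CCND2, CCNE2 and CCNE1, which rested on 6, 45 and 221 counts over the resistant and 8, 23 and 154 over the control libraries.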

Other observations

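The other CDKs and their cyclins were 3 higher and 5 lower of 21 tested genes (38.1% called, against 24.1% of all tested genes). CCNG1, cyclin G1, rose to 60.3 ± 5.69 CPM in resistant, against 34.0 ± 7.15 CPM in control cells (SD, n = 3 each; log2FC 0.86, SE 0.17, adjusted p = 0.000166 in edgeR). CCNI, cyclin I, fell to 161 ± 22.7 CPM in resistant, against 219 ± 4.63 CPM in control cells (log2FC -0.44, SE 0.11, adjusted p = 0.00196 in edgeR). Named after their values were seen, CDK18 (-1.40), CDK5 (-1.18), CDK10 (-0.68) and CDK13 (-0.52) were also lower, and CCNY (0.43) and CCNT1 (0.35) higher. Calls were lost without control replicate 1 for CDK10, CCNY and CCNT1, without control replicate 2 for CDK18, and without control replicate 3 for CDK5, CDK10 and CCNT1. They were also lost without resistant replicate 2 or 3 for CDK10, CDK18 and CCNT1, and in DESeq2 for CCNT1.

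Genes within 1 Mb of the members were counted after the data were seen, and the shares called stand beside 24.1% of all tested genes. Around CCND1, 1 of 9 tested neighbours was higher and 2 lower (33.3% called, median log2FC 0.10). Around CDK4 the counts were 2 higher and 5 lower of 24 (29.2%, median -0.17), and around CDKN1A 1 higher and 4 lower of 17 (29.4%, median -0.07). Among the other members, CDK2 had the most called neighbours by number, 10 higher and 3 lower of 36 (36.1%, median -0.03). CDKN1B had the highest share, with 1 higher and 3 lower of 11 (36.4%, median -0.43). The remaining shares ran from 0.0% for CDK6 to 30.0% for CCNE2.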
